A study of Mus musculus with 4 samples.

Results

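G2 and mitosis genes are described here as a set of 39 transcripts in mouse mammary tumour cells that differ in PCNA, the sliding clamp of DNA replication. The set was chosen by name: cyclins, mitotic kinases, spindle, kinetochore and cytokinesis genes, of which 39 of 39 were found among the 50679 gene identifiers measured. RNA was sequenced from 2 libraries with wild-type PCNA (WT 1 and WT 2) and 2 with the form labelled 211F (211F 1 and 211F 2). All 4 came from tumours of the polyoma middle T model (PyMT, an oncogene that drives mammary tumours) in mice 10 weeks old. Tumour cells were dissociated, captured through the epithelial surface antigen EpCAM and plated in medium with 10% serum. The sources used here do not give the promoter that drives PyMT, whether the 211F allele is on 1 or both chromosomes, or whether each library is 1 animal. The p-values therefore measure the spread between these libraries, which may be technical in part.

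Entry into mitosis is driven by CDK1 bound to cyclin A or B, which CDC25 phosphatases switch on. Chromosomes are then condensed, captured by spindle microtubules at kinetochores and held by the spindle checkpoint until each is attached. The anaphase-promoting complex (APC/C) with CDC20 then marks securin and the B cyclins for destruction, separase cuts cohesin, and the central spindle guides cytokinesis. Most of these genes are transcribed in G2 and M, under FOXM1, B-MYB and NF-Y, and are held down in resting cells by the DREAM complex. In tumours their summed level is commonly used as a measure of proliferation.

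Promoters of the set share sequence elements that the choice of members did not use. RefSeq promoter windows (GRCm38.p6; 250 bases before to 50 after a gene's start) were matched for 31 of 39 members, with 2 windows each for Ect2 and Prc1, 33 in all. Aurkb, Ccna2, Cdc25c, Dlgap5, Foxm1, Incenp, Kif20a and Tpx2 were not matched. CCAAT, the element bound by NF-Y, was searched on both strands and stood in 28 of 33 windows (84.8%), against 37.4% of all 32851 windows in the table and 38.0% of the 12158 windows of expressed genes (mean of at least 1 FPKM, the unit explained below). At least 2 copies stood in 18 of 33 (54.5%), against 11.7% of all windows. Windows of S phase genes held CCAAT in 21 of 34 (61.8%) and at least 2 copies in 12 of 34 (35.3%). A CCAAT share above that of all windows is thus not particular to the members. TTTGAA and TTCGAA, the usual forms of the cell cycle homology region through which DREAM and B-MYB act, were searched on both strands; TTCGAA reads the same on either strand, and matches of either can share an end base with CCAAT and were counted apart from it. One or other stood in 27 of 33 member windows (81.8%), against 19.2% of all windows and 13.8% of those of expressed genes. In 25 of 33 windows (75.8%) such a match lay within 50 bases of the start, against 5.31% of all windows. Both elements stood together in 25 of 33, against 7.52% of all windows and 5 of 34 windows of S phase genes (14.7%). Anln and Kif2c held a TTTGAA and no CCAAT. A match in letters is not a measured binding site, and these shares carry no test.

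The 150 bases before the start are shown for 8 members, chosen after their values were seen, 5′ to 3′ on the gene's strand, with CCAAT (or ATTGG, its reverse), TTTGAA (or TTCAAA) and TTCGAA in capitals. The first 4 are the members whose level was lower in both 211F libraries than in both WT libraries; the other 4 have groups that overlap and carry TTTGAA before the start. The stretches are Top2a at chr11:99024190-99024339 (minus strand), Bub1b at chr2:118598061-118598210 (plus strand), Racgap1 at chr15:99651657-99651806 (minus strand), Ttk at chr9:83834539-83834688 (plus strand), Cdk1 at chr10:69352913-69353062 (minus strand), Cdc20 at chr4:118437344-118437493 (minus strand), Ube2c at chr2:164769779-164769928 (plus strand) and Espl1 at chr15:102296143-102296292 (plus strand).
Top2a: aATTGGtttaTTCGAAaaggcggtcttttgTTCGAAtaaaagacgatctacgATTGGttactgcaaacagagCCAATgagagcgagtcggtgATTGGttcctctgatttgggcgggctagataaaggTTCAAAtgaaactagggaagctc
Bub1b: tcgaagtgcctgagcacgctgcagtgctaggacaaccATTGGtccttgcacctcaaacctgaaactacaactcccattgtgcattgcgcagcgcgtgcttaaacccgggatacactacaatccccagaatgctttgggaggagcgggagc
Racgap1: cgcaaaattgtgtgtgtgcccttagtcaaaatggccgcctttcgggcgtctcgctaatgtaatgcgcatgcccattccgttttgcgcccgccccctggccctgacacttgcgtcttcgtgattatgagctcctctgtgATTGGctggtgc
Ttk: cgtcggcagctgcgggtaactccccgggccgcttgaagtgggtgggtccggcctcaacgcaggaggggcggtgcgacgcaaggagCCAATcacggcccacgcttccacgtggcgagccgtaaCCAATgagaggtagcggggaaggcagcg
Cdk1: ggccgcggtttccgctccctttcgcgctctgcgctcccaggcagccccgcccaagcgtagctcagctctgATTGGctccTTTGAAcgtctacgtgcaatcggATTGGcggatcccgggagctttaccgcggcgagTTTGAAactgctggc
Cdc20: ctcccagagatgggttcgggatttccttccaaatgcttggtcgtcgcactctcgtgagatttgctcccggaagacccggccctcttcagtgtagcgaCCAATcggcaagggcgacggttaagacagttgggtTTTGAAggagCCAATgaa
Ube2c: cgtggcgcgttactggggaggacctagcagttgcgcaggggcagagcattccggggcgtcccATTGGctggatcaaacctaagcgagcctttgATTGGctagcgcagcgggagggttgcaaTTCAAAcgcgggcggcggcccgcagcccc
Espl1: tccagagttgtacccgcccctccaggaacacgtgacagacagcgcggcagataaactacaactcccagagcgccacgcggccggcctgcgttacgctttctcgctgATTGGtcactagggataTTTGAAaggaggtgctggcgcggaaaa
Of these, Top2a held 4 CCAAT matches and both forms of the other element in the stretch shown, and Cdk1 held 2 of CCAAT and 2 of TTTGAA. In Bub1b, Racgap1 and Ttk the capitals mark CCAAT alone, and TTTGAA lay after the start, at bases 41, 6 and 8. Bub1b also held a TTCGAA before the start, at base -188, outside the stretch shown. All 8 stretches hold CCAAT. Since the second 4 were chosen for TTTGAA before the start, the sets cannot be compared for that element.

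Levels are given as FPKM (fragments scaled to transcript length and to the library's mapped fragments), which allows levels to be compared between genes. Values of a gene are given in the order WT 1 and WT 2, then 211F 1 and 211F 2. The libraries did not group by genotype: on the first principal component of all expressed genes (62.2% of the variance) WT 1 and 211F 2 lay together at -55.1 and -62.8, 211F 1 at 26.7 and WT 2 at 91.2. Epcam, the capture antigen, had 444 and 0.893 FPKM (WT) and 77.3 and 449.6 FPKM (211F). Cdh1, E-cadherin, was likewise near 0 in WT 2 alone, with 257 and 0.533 FPKM (WT) and 102 and 202 FPKM (211F). The mesenchymal filament gene Vim had 124 and 1634 FPKM (WT) and 1856 and 1.86 FPKM (211F), and Col1a1, a fibrillar collagen, 0.542 and 437 FPKM (WT) and 2.70 and 0.566 FPKM (211F). Both were raised in WT 2, and Vim in 211F 1 as well. WT 2 thus lacks the epithelial markers its label implies, with a median of 0.257 FPKM over 14 epithelial markers, against 100.6 in WT 1 and 46.1 and 93.8 in the 211F libraries. What cells this library holds, and whether it is the sample its label names, cannot be told from these values, and each WT against 211F value below includes it unless stated. Over 13 mesenchymal or fibroblast markers the medians were 0.657 and 52.3 (WT) and 9.15 and 0.566 FPKM (211F). The pan-leukocyte gene Ptprc was at or below 0.0180 FPKM, and no leukocyte marker of 9 exceeded 3.84 or endothelial marker of 7 exceeded 1.75 in any library. In bulk RNA, fewer cells of a kind and less RNA per cell cannot be told apart, and this holds for a change in the share of mitotic cells too.

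The G2 and mitosis genes were expressed at high level in all 4 libraries. The lowest value of any member was 13.7 FPKM (Cdc25c in 211F 1), and all 39 passed the expression filter. Their medians were 61.9 and 85.8 FPKM (WT) and 57.9 and 68.2 FPKM (211F). Among the 12767 expressed genes, the median member lay at percentiles 86.8 and 91.4 in WT and 85.1 and 87.5 in 211F. The summed levels were 3243 and 4509 FPKM (WT) and 3219 and 3689 FPKM (211F). WT 2 was therefore highest by either measure, while WT 1 and 211F 1 were close to each other.

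Among the genes that start mitosis, Cdk1, the kinase itself, was the most abundant member at 374 and 718 FPKM (WT) and 433 and 368 FPKM (211F). Its level in WT 2 stood apart from the other 3 libraries. Ccna2, cyclin A2, was nearly level at 146 and 153 FPKM (WT) and 127 and 168 FPKM (211F), and Ccnb1, cyclin B1, at 88.1 and 123 FPKM (WT) and 100.1 and 118 FPKM (211F). Ccnb2, cyclin B2, was at 77.4 and 79.6 FPKM (WT) and 57.1 and 85.01 FPKM (211F). The genotypes overlapped in all 3 cyclins. Named pseudogenes of Ccnb1, Ccnb2 and the spindle motor gene Kif4 are annotated, so reads of these 3 members could have been split with a copy. The phosphatase gene Cdc25b had the widest spread of all members, 43.6 and 51.4 FPKM (WT) and 26.3 and 67.7 FPKM (211F), and the 2 extremes were both 211F libraries. Cdc25c, a related phosphatase that activates CDK1, was lowest in 211F 1 and highest in 211F 2 as well, at 17.04 and 14.4 FPKM (WT) and 13.7 and 25.3 FPKM (211F). Foxm1, the transcription factor of the programme, covered a narrow range, 56.2 and 74.2 FPKM (WT) and 62.7 and 71.01 FPKM (211F).

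The 3 genes grouped here as mitotic kinases were each lowest in WT 1. Plk1, polo-like kinase 1, was at 97.1 and 152 FPKM (WT) and 116 and 130.2 FPKM (211F). Aurka, the spindle pole kinase, reached 46.3 and 98.2 FPKM (WT) and 65.4 and 61.2 FPKM (211F), so its extremes were both WT libraries. Nek2, a centrosomal kinase, was at 27.9 and 48.5 FPKM (WT) and 32.6 and 50.3 FPKM (211F), higher in both libraries numbered 2.

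Of the 8 checkpoint and anaphase genes 2 did not overlap between genotypes (25.0%), near the 26.8% of all expressed genes. Bub1b, which encodes the checkpoint protein BubR1, was at 69.8 and 85.8 FPKM (WT) and 52.6 and 50.6 FPKM (211F). Both 211F libraries were close together and below both WT libraries. Ttk, the checkpoint kinase MPS1, was at 32.1 and 33.0 FPKM (WT) and 28.4 and 24.9 FPKM (211F), again with no overlap but with a narrow gap. Bub1, the partner kinase, did not follow them and was at 27.9 and 53.1 FPKM (WT) and 37.4 and 36.98 FPKM (211F), where WT 1 and WT 2 enclosed both 211F libraries. Mad2l1, the checkpoint inhibitor of CDC20, was at 48.1 and 69.6 FPKM (WT) and 47.9 and 58.5 FPKM (211F).

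Of the genes that carry out anaphase, Ube2c, the ubiquitin-conjugating enzyme of the APC/C, was most abundant, at 212 and 354 FPKM (WT) and 205 and 304 FPKM (211F). Cdc20, its activator, was at 94.8 and 109 FPKM (WT) and 95.9 and 127 FPKM (211F), highest in 211F 2. Pttg1, securin, was at 54.2 and 85.9 FPKM (WT) and 47.1 and 58.4 FPKM (211F), and Espl1, separase, at 13.95 and 28.9 FPKM (WT) and 16.5 and 18.6 FPKM (211F). The groups overlapped in each of these, and the level in WT 2 was the highest for Ube2c, Pttg1 and Espl1.

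The chromosomal passenger complex, which corrects faulty attachments, is represented by Aurkb, its kinase, at 62.1 and 91.4 FPKM (WT) and 54.4 and 64.2 FPKM (211F). Incenp, the scaffold, followed the same order of libraries at 61.6 and 89.2 FPKM (WT) and 53.6 and 68.2 FPKM (211F), while Cdca8, borealin, was highest in 211F 2 at 74.0 and 62.4 FPKM (WT) and 57.9 and 89.6 FPKM (211F). Both Aurkb and Incenp were lowest in 211F 1 and highest in WT 2. Cenpa, the centromeric histone H3 variant, was at 98.4 and 165 FPKM (WT) and 84.6 and 145 FPKM (211F). The kinetochore motor gene Cenpe was at 30.7 and 54.3 FPKM (WT) and 36.4 and 43.4 FPKM (211F), and Cenpf, a large kinetochore and matrix protein, at 25.3 and 43.99 FPKM (WT) and 27.2 and 38.97 FPKM (211F). All 3 centromere genes were higher in the libraries numbered 2 of each genotype.

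Of the 7 spindle genes 0 were without overlap between genotypes, beside 26.8% of all expressed genes. A count over 7 genes is too small to be read as a trait of this role. Kif11, the motor that keeps spindle poles apart, was at 36.9 and 48.9 FPKM (WT) and 31.2 and 43.3 FPKM (211F). Kif2c, a microtubule depolymerase, was at 50.3 and 53.8 FPKM (WT) and 39.03 and 53.6 FPKM (211F), and Kif4, a chromosome-bound motor, at 27.2 and 36.01 FPKM (WT) and 35.3 and 25.96 FPKM (211F). The latter 2 varied by less than 1.4-fold between the lowest and the highest library. Tpx2, the activator of Aurora A, was at 95.6 and 128 FPKM (WT) and 100.3 and 94.3 FPKM (211F), highest in WT 2. Hmmr, Dlgap5 and Nusap1, which bind spindle microtubules, lay between 34.5 and 79.6 FPKM, and Hmmr and Nusap1 were highest in WT 2.

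Cytokinesis genes had the highest median of the 6 groups with more than 2 members, from 99.7 FPKM (WT 1) to 137 FPKM (WT 2). Racgap1, a subunit of centralspindlin, was at 124 and 189.8 FPKM (WT) and 122 and 110.4 FPKM (211F), so both 211F libraries lay below both WT libraries, although WT 1 was close to both of them. Its partner motor Kif23 was highest in 211F 2, at 126 and 134 FPKM (WT) and 117 and 206 FPKM (211F), and its groups overlapped. Kif20a, which brings the passenger complex to the midzone, was at 63.8 and 73.8 FPKM (WT) and 77.6 and 81.1 FPKM (211F) and was the sole member above both WT libraries in both 211F libraries. Exons of Kif20a overlap those of Cdc23 on the opposite strand over 1271 bases, and the sources used here do not say how the counting treated strand. Anln, the contractile ring scaffold anillin, was at 88.6 and 139.7 FPKM (WT) and 145 and 121 FPKM (211F), lowest in WT 1. Prc1, which bundles midzone microtubules, was at 111 and 195 FPKM (WT) and 154 and 138 FPKM (211F), and Ect2, the activator of RhoA, at 61.9 and 89.5 FPKM (WT) and 61.1 and 84.2 FPKM (211F).

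Top2a, the topoisomerase that untangles chromosomes, was at 264 and 275 FPKM (WT) and 202 and 158 FPKM (211F), and both 211F libraries were below both WT libraries. Mki67, the proliferation antigen Ki-67, was at 177 and 105 FPKM (WT) and 94.98 and 140.2 FPKM (211F), the sole member highest in WT 1. Its groups overlapped, with 211F 2 between the 2 WT libraries.

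**Figure D1:**
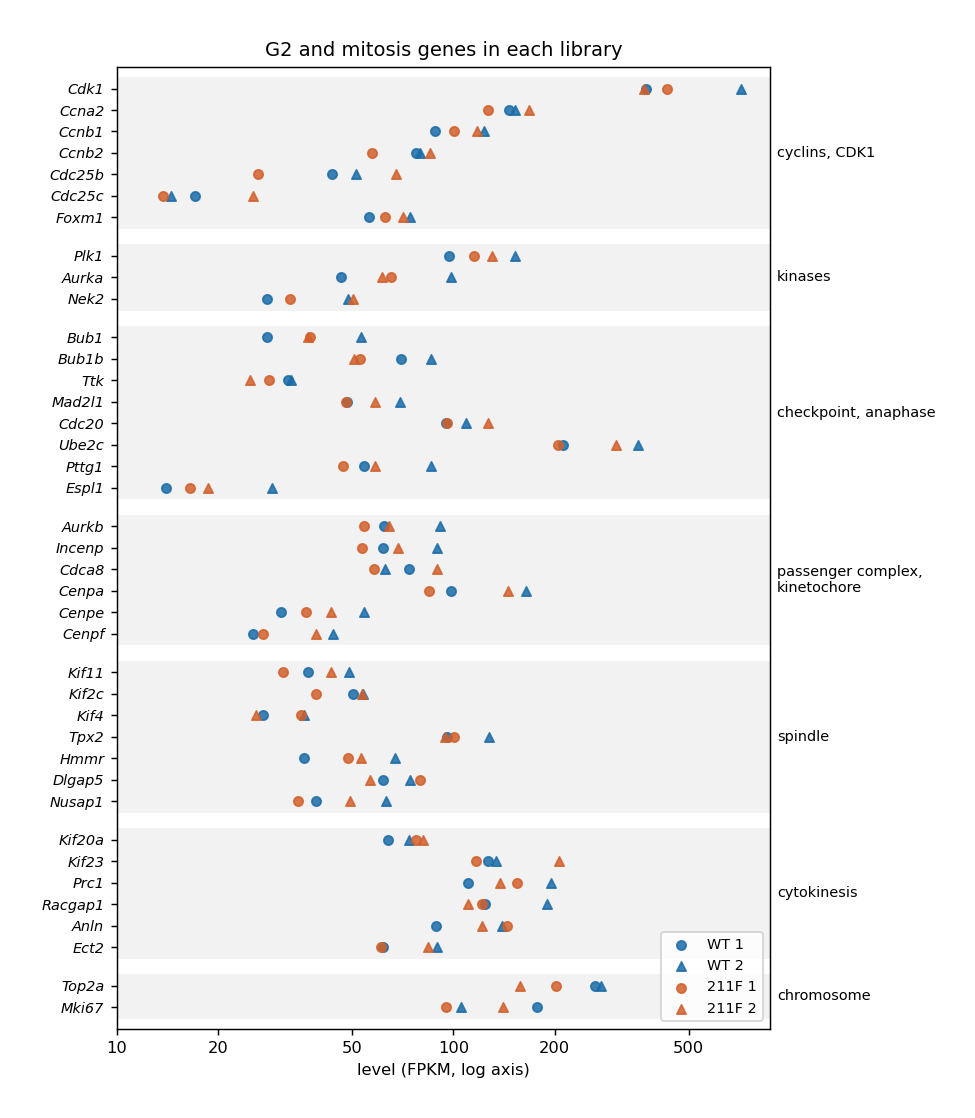
Level of each of the 39 genes (rows, grouped by role) in each library, in FPKM on a log axis; blue is WT, orange is 211F, circles are libraries numbered 1 and triangles those numbered 2. Cdk1 is highest at 718 FPKM in WT 2, and the triangles of most rows lie to the right of the circles of their own colour.

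Large ratios between libraries were fewer among the members than among all expressed genes. The highest library exceeded the lowest by 1.27-fold (Kif20a) to 2.58-fold (Cdc25b), with a median of 1.70. In 36 of 39 members (92.3%) the ratio was under 2, the exceptions being Cdc25b, Aurka (2.12) and Espl1 (2.07). Among the 12489 expressed genes above 0 in every library 54.9% were under 2, with a median of 1.87. Among the 5834 genes whose mean reached 17.6 FPKM, that of the lowest member, 67.9% were under 2 and the median was 1.65. Beside those abundant genes the members' median ratio was no smaller, and large ratios were fewer. Most of the 36 S phase genes were under 2 as well, with 2.83 the largest ratio. Few large ratios are thus not particular to the members. These shares carry no test. The smallest fragment estimate of any member was about 322 (Espl1), from the spacing of low values and the median annotated transcript length.

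**Figure D2:**
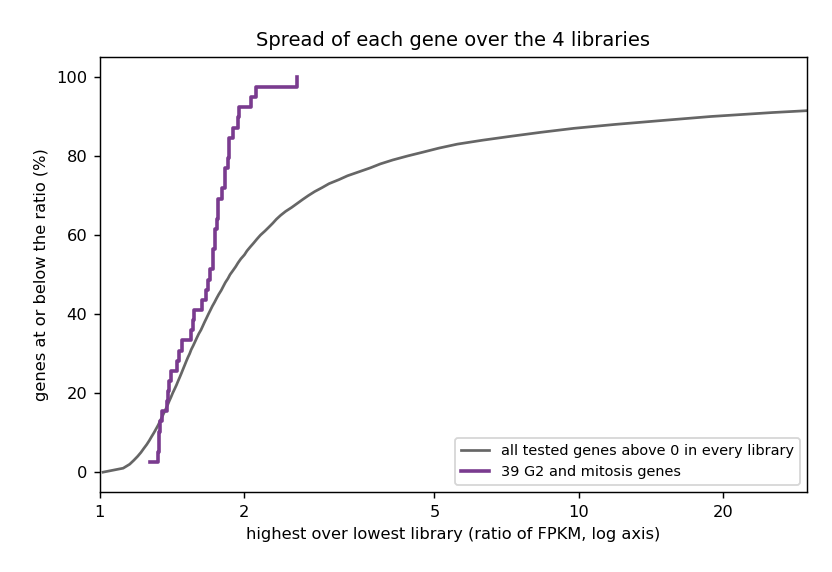
Share of genes (vertical axis, %) whose ratio of highest to lowest library is at or below the value on the horizontal log axis; the purple steps are the 39 members and the grey line all expressed genes above 0 in every library. The purple curve ends at 2.58, while the grey curve is still below 100% at the right edge.

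The members differed between libraries of the same genotype. WT 2 exceeded WT 1 in 36 of 39 members, with a median difference of 0.52 on the log2(FPKM + 1) scale, against 52.9% of all expressed genes with a median of 0.05. The exceptions were Cdc25c, Cdca8 and Mki67. In the same way 211F 2 exceeded 211F 1 in 27 of 39 members, with a median of 0.25, against 53.3% of all expressed genes. In 24 of 39 members (61.5%) the library numbered 2 was higher in both genotypes and in 0 was it lower in both, against 21.7% and 15.4% of expressed genes. WT 2 was the highest library for 27 of 39 members (30.2% of expressed genes) and the lowest for 0 (29.1%). The sources used here do not say what libraries of the same number share.

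Genes of DNA replication were more often lower than higher between the same libraries. Of 36 S phase genes, among them Pcna and the MCM helicase genes, 20 (55.6%) were lower in the library numbered 2 of both genotypes and 6 were higher in both. Their median difference was -0.12 for WT 2 minus WT 1 and -0.32 for 211F 2 minus 211F 1. Pcna itself was at 155 and 147 FPKM (WT) and 173 and 119 FPKM (211F). The median log2 level of the members exceeded that of the S phase genes by 0.47 and 1.15 in the WT libraries and by 0.41 and 0.96 in the 211F libraries. The balance between the lists thus differed within each genotype, and the ranges of the genotypes overlapped. WT 2 also lacks epithelial markers, while their median in 211F 2 was close to that in WT 1 (Krt5, a basal keratin, at 3.84 against 245 FPKM, was an exception). In 211F 1 the epithelial median was 46.1 and the mesenchymal median 9.15 FPKM, against 93.8 and 0.566 FPKM in 211F 2. The library numbered 2 thus had the lower epithelial median in WT and the higher in 211F. The part of cell state in this pattern was not tested.

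**Figure D3:**
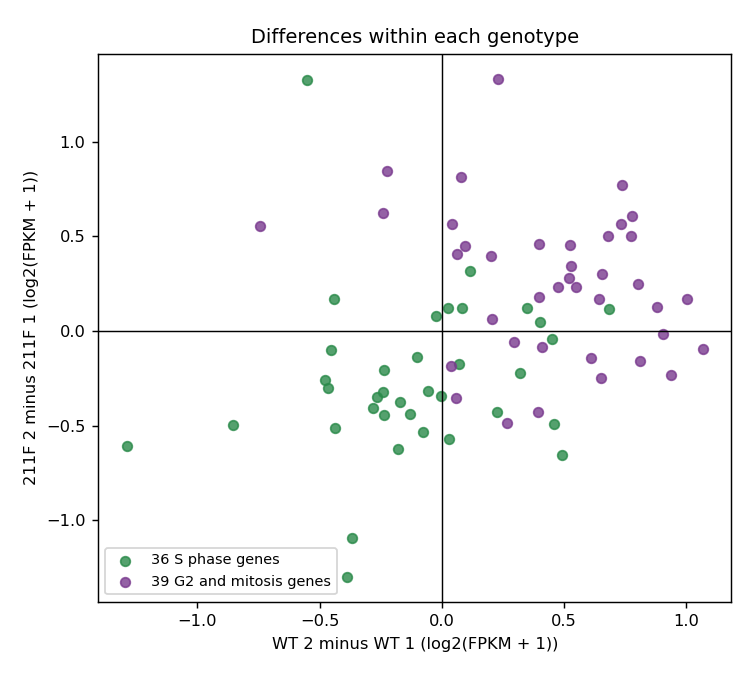
Each point is a gene, placed by its difference between the 2 WT libraries (horizontal) and between the 2 211F libraries (vertical), both in log2(FPKM + 1); purple marks the 39 G2 and mitosis genes and green the 36 S phase genes. Most purple points lie upper right (24 of 39) and most green points lower left (20 of 36).

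**Figure D4:**
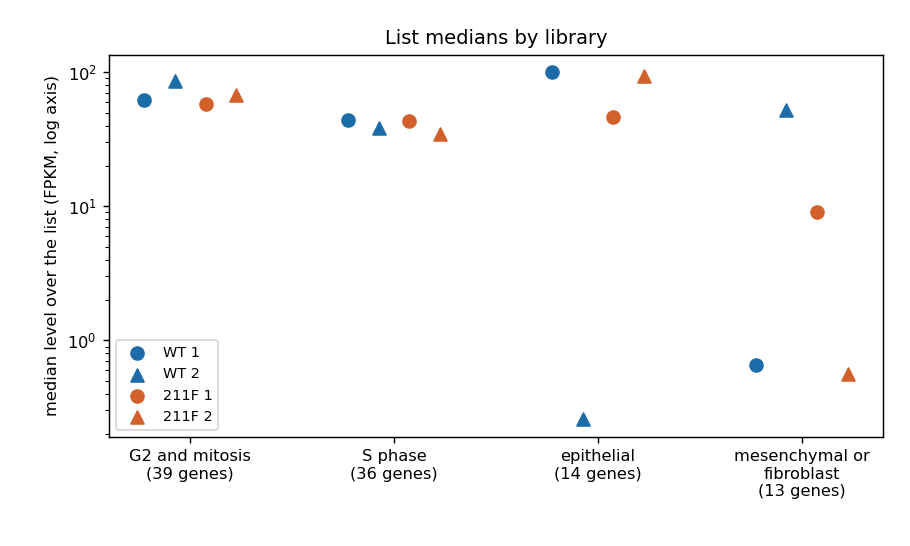
Median level (FPKM, log axis) over 4 gene lists in each library, with colours and symbols for genotype and library number. The members lie between 57.9 and 85.8 FPKM, while the epithelial markers fall to 0.257 in WT 2.

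The comparison of genotypes asks whether mitotic transcripts differ between tumour cells with PCNA 211F and with wild-type PCNA. No member passed the limma test in either direction: 0 of 39 were higher and 0 lower, with 0 of 12767 genes called (0%) and a smallest adjusted p of 0.9999. At an unadjusted p under 0.05 there were 0 of 39 members, beside 241 of all genes (1.89%; 0.893% higher and 0.995% lower in 211F). With quantile normalization 2 members were under that limit, and with no filter 1 was. Differences were 211F minus WT on the log2(FPKM + 1) scale, and 28 of 39 members were below 0 with a median of -0.09, beside 46.9% of all genes and a median of 0.03. With quantile normalization 32 members were below 0 and 7 above. That direction rested on which libraries were used. Without WT 2, 14 of 39 were below 0 and the median was 0.13; without 211F 1, 16 were below 0 and the median was 0.04. Without WT 1 the median was -0.39, and without 211F 2 it was -0.24. In 33 of 39 members the difference was under 0.3 in size. The 95% intervals held 0 for all 39 and reached from -1.60 to 1.33, so a change of 2-fold remained inside the interval for all but 16 members.

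The groups did not overlap in 5 of 39 members (12.8%), 4 lower and 1 higher in 211F, beside 26.8% of all genes (11.6% lower and 15.2% higher). With 2 libraries against 2, an exact permutation test of a single gene cannot go below p = 0.333 (two-sided). Top2a (ENSMUSG00000020914, GRCm38 chromosome 11, 98992943 to 99024189, minus strand) was 269.5 ± 7.44 FPKM over the WT libraries and 180.0 ± 31.1 FPKM over the 211F libraries (mean ± SD, 2 libraries per genotype). Its difference was -0.59 ± 0.24 (SE; 95% interval -1.25 to 0.07), with a limma unadjusted p of 0.0672 and an adjusted p of 0.9999. Top2a exons share 122 bases with a small nucleolar RNA gene on the same strand. Bub1b (ENSMUSG00000040084, GRCm38 chromosome 2, 118598211 to 118641591, plus strand) was 77.8 ± 11.3 FPKM over the WT libraries and 51.6 ± 1.47 FPKM over the 211F libraries (mean ± SD, 2 libraries per genotype). Its difference was -0.58 ± 0.23 (SE; 95% interval -1.21 to 0.06), the smallest unadjusted limma p of the members (0.0647; adjusted p = 0.9999). Both genes were lower in 211F whichever single library was left out, which the separation of their groups fixes in advance.

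The other 3 separated members had smaller differences. Racgap1 (ENSMUSG00000023015, GRCm38 chromosome 15, 99620496 to 99651656, minus strand) differed by -0.40 ± 0.30 (SE; 95% interval -1.22 to 0.42), by -0.71 without WT 1 and by -0.10 without WT 2. Ttk (ENSMUSG00000038379, GRCm38 chromosome 9, 83834689 to 83872389, plus strand) differed by -0.28 ± 0.23 (SE; 95% interval -0.92 to 0.35). Kif20a (ENSMUSG00000003779, GRCm38 chromosome 18, 34624613 to 34633277, plus strand) differed by 0.21 ± 0.21 (SE; 95% interval -0.39 to 0.80), and by 0.10 without WT 1. All 3 intervals cover 0, and each limma adjusted p was 0.9999. The largest positive differences were those of Kif23, 0.25 ± 0.35 (SE; 95% interval -0.72 to 1.22), Anln, 0.25 ± 0.32 (SE; 95% interval -0.62 to 1.12), and Cdc25c, 0.24 ± 0.39 (SE; 95% interval -0.85 to 1.33). Cdc25c shares 623 exon bases with Gm3550 on the opposite strand. Each of these 3 overlapped between genotypes and turned below 0 when 1 library was left out: Kif23 (-0.16) and Cdc25c (-0.19) without 211F 2, and Anln (-0.076) without WT 1. The difference in the first 2 thus lay in 211F 2.

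**Figure D5:**
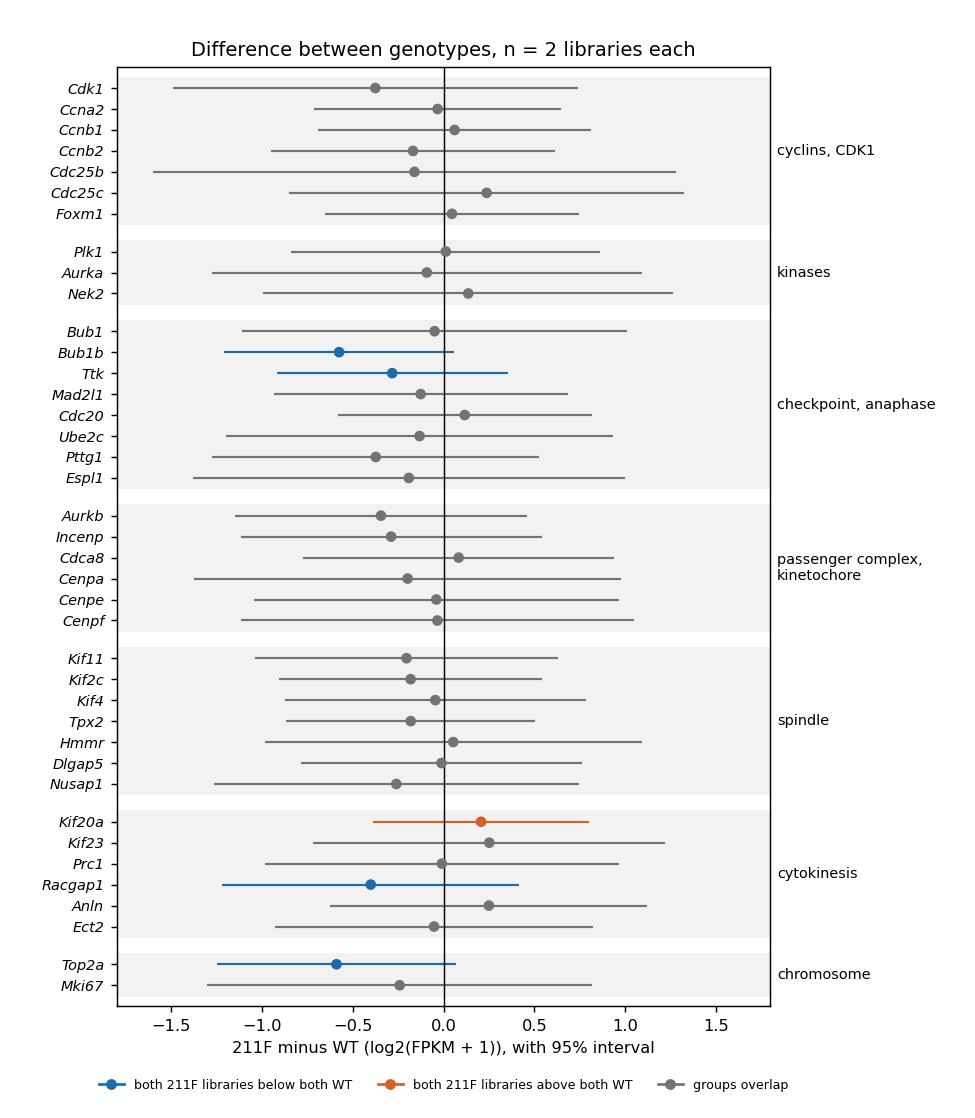
Difference between genotypes for each of the 39 genes (211F minus WT, log2(FPKM + 1)) with its 95% limma interval, 2 libraries per genotype. Every interval crosses 0; blue rows (Bub1b, Ttk, Racgap1, Top2a) have both 211F libraries below both WT libraries and the orange row (Kif20a) has both above.

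By role, the differences were centred near 0 for cyclins and CDK1 activators (3 of 7 above 0, median -0.03) and for mitotic kinases (2 of 3, median 0.01). They were mostly below 0 for checkpoint and anaphase genes (7 of 8 below, median -0.16), passenger complex and kinetochore genes (5 of 6 below, median -0.12) and spindle genes (6 of 7 below, median -0.18). Cytokinesis genes were split 3 to 3, and both mitotic chromosome genes were below 0 (median -0.42). No gene of any role passed the test. The shares by role stand beside 46.9% of all genes below 0. Without WT 2, 14 of the 39 members were below 0, so the direction rested on the libraries used. It was not recounted by role.

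Other genes of the same machinery were read from lists by function, and 0 of them passed the test in either direction. Among 17 subunits and regulators of the APC/C, 7 were above 0 and 10 below, with a median of -0.01 (0.13 without WT 2, -0.13 without WT 1 and -0.12 without 211F 2). Anapc2, the cullin subunit, was at 72.4 and 75.8 FPKM (WT) and 51.2 and 61.7 FPKM (211F), and Anapc7, a scaffold subunit, at 41.7 and 38.2 FPKM (WT) and 29.4 and 33.6 FPKM (211F). Cdc23, whose exons overlap those of Kif20a, was at 38.2 and 36.5 FPKM (WT) and 44.7 and 51.4 FPKM (211F). These 3, named for their smallest p, are all the genes of the list without overlap, 17.6% of it, beside 26.8% of all genes.

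Of 41 other kinetochore and centromere genes 14 were above 0 and 27 below (median -0.12). Dsn1, of the MIS12 complex, was at 22.7 and 27.2 FPKM (WT) and 16.9 and 14.2 FPKM (211F), and the centromere gene Cenpm at 9.58 and 18.1 FPKM (WT) and 6.61 and 6.85 FPKM (211F). Oip5, a factor for loading CENP-A, was at 16.5 and 21.3 FPKM (WT) and 13.2 and 15.4 FPKM (211F), and shares 172 exon bases with the member Nusap1 on the opposite strand. The list held 9 genes without overlap (22.0%, beside 26.8% of all genes), 6 lower and 3 higher in 211F. The 3 named have the smallest p and are all among the lower. Without WT 1 its median was -0.39 and without WT 2 it was 0.14. Cohesin and condensin genes had 7 of 19 above 0 (median -0.11; -0.34 without WT 1 and 0.058 without WT 2), with 3 higher and 4 lower without overlap (36.8%). Rad21, the cohesin subunit that separase cuts, was at 181 and 248 FPKM (WT) and 153 and 151 FPKM (211F), and Ncaph2, of condensin II, at 87.3 and 117 FPKM (WT) and 63.05 and 82.2 FPKM (211F). Wapl, which releases cohesin, went the other way at 44.7 and 39.2 FPKM (WT) and 49.6 and 56.5 FPKM (211F). Exons of Ncaph2 overlap Sco2 and Tymp on the opposite strand.

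Centrosome and other spindle genes had 14 of 37 above 0 (median -0.03; -0.19 without WT 1 and 0.18 without WT 2), with 4 higher and 2 lower without overlap (16.2%). The augmin genes Haus2, at 7.44 and 8.43 FPKM (WT) and 10.3 and 11.2 FPKM (211F), and Haus6, at 14.1 and 12.9 FPKM (WT) and 17.7 and 17.4 FPKM (211F), and the gamma-tubulin complex gene Tubgcp3, at 33.1 and 27.1 FPKM (WT) and 42.8 and 34.6 FPKM (211F), were higher in both 211F libraries. Other cytokinesis genes were above 0 in 14 of 19, with a median of 0.10 that was 0.27 without WT 2, -0.042 without WT 1 and -0.0012 without 211F 2. In 5 both 211F libraries were higher and in 1 lower (31.6% without overlap, beside 26.8% of all genes). The RhoA effector kinases Rock1, at 22.3 and 14.9 FPKM (WT) and 25.9 and 34.9 FPKM (211F), and Rock2, at 23.2 and 37.6 FPKM (WT) and 42.3 and 42.3 FPKM (211F), were higher in both 211F libraries, as was Pdcd6ip, the abscission factor ALIX, at 104 and 85.1 FPKM (WT) and 127 and 124 FPKM (211F). These kinases also act on the cytoskeleton outside division.

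Regulators upstream of the set were mixed. Of all genes, 26.8% did not overlap between genotypes (15.2% higher in 211F), and 1.89% had an unadjusted limma p under 0.05. Of 21 DREAM, B-MYB, NF-Y and E2F genes 11 were above 0 (median 0.07; -0.028 without WT 2), 3 did not overlap (14.3%), and 1 had an unadjusted p under 0.05. That gene was Rbl2, which encodes the pocket protein of DREAM in resting cells, at 18.4 and 14.8 FPKM (WT) and 8.52 and 8.27 FPKM (211F). Both 211F libraries were below both WT libraries, with an unadjusted limma p of 0.0341 and an adjusted p of 0.9999. Rbl2 exons overlap Aktip on the opposite strand. Tfdp2, a partner of E2F, was at 25.99 and 21.5 FPKM (WT) and 15.9 and 20.1 FPKM (211F), and Nfyc, an NF-Y subunit, at 44.0 and 36.9 FPKM (WT) and 47.1 and 53.4 FPKM (211F). Of 14 measured brakes and phosphatase regulators of CDK1, 8 were above 0 (median 0.03; 0.045 to 0.13 with 1 library left out), 4 did not overlap (28.6%), all higher in 211F, and Rprm was below the filter. Cdkn1a, the CDK inhibitor p21, was at 3.80 and 1.55 FPKM (WT) and 12.4 and 5.41 FPKM (211F), higher in both 211F libraries. Its level was below that of the median expressed gene in every library, though close to it in 211F 1 (14.2 FPKM). Sfn, the epithelial 14-3-3 protein that holds CDK1 complexes in the cytoplasm, was at 128 and 0.528 FPKM (WT) and 221 and 227 FPKM (211F). Sfn was near 0 in WT 2 alone, the library without epithelial markers. Cdc25a, a phosphatase that activates CDKs, was at 12.7 and 15.1 FPKM (WT) and 17.4 and 20.5 FPKM (211F). Cdkn1a, Sfn and Cdc25a are among the 4 genes without overlap, so that count is not one of brakes alone.

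Of the S phase genes, 15 of 36 were above 0 between genotypes. Their median was -0.06 (0.056 without WT 1 and 0.11 without 211F 2). In 4 the groups did not overlap (11.1%, beside 26.8% of all genes). Ccne2, cyclin E2, was at 12.98 and 18.2 FPKM (WT) and 24.4 and 17.04 FPKM (211F), Mcm5, a helicase subunit, at 92.4 and 81.97 FPKM (WT) and 120.5 and 92.8 FPKM (211F), and Orc6, of the origin recognition complex, at 29.9 and 35.1 FPKM (WT) and 45.6 and 33.7 FPKM (211F). Of these, Mcm5 alone was separated by genotype, by a gap smaller than 1 FPKM. The difference between the members' shift and that of S phase genes was not tested. Exons of Ccne2, Cdkn1a, Haus2, Orc6 and Tubgcp3 also overlap a gene on the opposite strand, so their values carry the same uncertainty as those of Kif20a and Cdc23.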

How the data were processed

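RNA of 4 libraries (2 WT, 2 211F; grouped by title) was read from a single table of FPKM values that the authors deposited, with 50679 Ensembl identifiers. TopHat2 2.0.13, DESeq2 and GRCm38 are named, with no role, per the submitters' processing notes; for these values the software, gene models and use of strand are not stated in the labels. Symbols were matched by identifier for 50369 genes. Gene positions come from GENCODE M21 (GRCm38) and promoters from RefSeq (GRCm38.p6).

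The table holds no counts. In 1971 genes with 1 annotated transcript of at least 3000 bases, 93.0% to 94.5% of low values fell within 0.1 of a whole step. If no rescaling followed, WT 2 was sequenced 1.72 times as deeply as WT 1, and the 211F libraries 1.1 and 0.941 times. FPKM sums ran from 544399 to 564977.

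The 12767 genes whose mean reached 1 FPKM were tested as log2(FPKM + 1) with limma 3.58.1 in R 4.3.3, two-sided, with an intensity trend and adjusted p-values (Benjamini-Hochberg, threshold 0.05). The fit was tested on simulated data, and recovery of the changes was required only at a small spread (SD of 0.05). That test does not say which changes could be found at the spread of these libraries. The log scale understates changes of low genes. FPKM divides by the library total, so very abundant genes lower the rest. Of the members, 12 share exon bases with a gene on the opposite strand and 2 on the same strand.

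Members and lists were chosen with earlier results of these data known. Full values are given for members whose groups do not overlap and differ by at least 0.5, and for the 3 largest differences each way. In other lists up to 3 genes of smallest p are named. Pcna, Epcam, Cdh1, Vim and Col1a1 are named whatever their values. Alternatives changed the pseudocount, filter, scaling, prior, block and libraries.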

Additional observations from a re-analysis of the deposited data

How the results depend on the processing

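limma called 0 genes, 0 members and 0 genes of the other lists in the main test and in all 13 alternative fits, of which the crossed block was chosen after seeing the data. An unadjusted p under 0.05 was reached by 241 genes, by 745 with the filter removed (more genes tested), and by 221 to 836 across the leave-one-out fits, the 836 without WT 1. Those fits take the lone library of a genotype to have the spread of the other genotype. The members below 0 numbered 28, with a leave-one-out range of 14 to 34. Their median was -0.09, with a leave-one-out range of -0.39 to 0.13. With single pairs of libraries, chosen after seeing the data and with no test, 9 members were below 0 in 211F 2 minus WT 1 (median 0.33), and the median was -0.47 in 211F 1 minus WT 2. Those pairs gave 0.16 and -0.20 for the APC/C, and 211F 2 minus WT 1 gave 0.22 for other kinetochore and 0.18 for centrosome genes. S phase genes gave 0.16 in 211F 1 minus WT 2. Leaving out a library gave medians of -0.13 to 0.13 for the APC/C, -0.028 to 0.017 for DREAM and E2F regulators, -0.19 to 0.18 for centrosome, -0.39 to 0.14 for other kinetochore, -0.34 to 0.058 for cohesin and condensin, -0.042 to 0.27 for other cytokinesis and -0.093 to 0.11 for S phase genes. At a mean of at least 5 FPKM the DREAM and E2F median was -0.035. The differences of Cdc25c (-0.19 to 0.66), Anln (-0.076 to 0.58) and Kif23 (-0.16 to 0.66) turned when a library was left out. Those of Top2a, Bub1b, Racgap1, Ttk and Kif20a could not turn, since their groups do not overlap. The cause of these shifts was not tested.

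No label states that a shared replicate number means shared origin, and across genes the deviations of libraries with 1 number correlated at r = -0.465. With the replicate block 142 genes had an unadjusted p under 0.05 and 28 members were below 0. With the crossed block (WT 1 with 211F 2) 0 genes were called and 520 had an unadjusted p under 0.05. Read counts per gene were not used here, so precision rests on the 2 libraries of each genotype.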
